A study of Mus musculus with 3 samples.

Results

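The genes described are 32 genes of cholesterol synthesis, transport and turnover, measured in mouse hippocampus by RNA-seq. They were chosen by gene name from a list, with no measured value in the rule, and all 32 were found among the 54532 genes of the table. The list holds 16 enzymes that build cholesterol from acetyl-CoA, 4 genes that sense sterols, 2 liver X receptor (LXR) genes, 1 intracellular sterol carrier, 5 genes of export and lipoprotein handling, and 4 genes of esterification and oxysterol formation. The last 9 are called export and turnover genes below. Hippocampal RNA came from 3 groups of C57BL/6 mice aged 10 months, with 1 library per genotype. The groups were wild type (WT), PS19, and PS19 mice heterozygous for loss of Zbp1 (PS19 Zbp1+/-). PS19 mice carry a human mutant tau transgene under the mouse Prnp promoter and serve as a model of tau pathology, and both PS19 groups carry it. Zbp1 encodes a sensor of Z-form nucleic acids. The labels give neither sex nor the number of animals behind a library. The comparisons describe how these genes differ between the PS19 and WT libraries, and between the PS19 Zbp1+/- library and each of those. With 1 library per genotype they cannot show an effect of tau pathology or of the labelled loss of 1 Zbp1 copy.

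The brain makes nearly all of its own cholesterol, because lipoproteins of the blood do not cross the blood-brain barrier. When sterols run low in the endoplasmic reticulum, Scap carries SREBP proteins (encoded by Srebf1 and Srebf2) to the Golgi, where cleavage releases a transcription factor that turns on the synthesis enzymes. When cholesterol is in excess, Insig proteins hold Scap back, and oxysterols activate LXR (Nr1h2 and Nr1h3), which turns on export genes such as Abca1 and Abcg1 and also Srebf1. Neurons remove cholesterol from the brain mainly by converting it with Cyp46a1 to an oxysterol that leaves for the blood. In bulk tissue, fewer cells of a type and less RNA per cell cannot be told apart.

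Levels are deposited FPKM values, a measure of fragments that allows for the length of the gene and the size of the library, and whole reads recovered from them. Triplets of values follow the order WT, PS19, PS19 Zbp1+/- throughout. Recovered reads summed to between 16400328 and 17109734 per library. A difference below is one of log2(FPKM + 1) between 2 libraries, and genes apart by 1 or more on that scale counted as 2-fold higher or lower. A second, looser count used 1.5-fold. Read ratios are per library size, with exact (Clopper-Pearson) 95% intervals that compare libraries, not genotypes. The intervals hold counting error alone and no spread between animals. They can be too narrow even for counting error, because 1 molecule can give several reads in a library that lacks molecular identifiers. With 1 library per genotype there is no replicate check and no p-value. The background is the 12274 protein-coding genes with a mean FPKM of at least 1 over the 3 libraries. Of the 32 genes, 30 passed that filter, and Fdps and Ch25h did not, but all 32 are counted below. Zbp1 itself had 5, 91 and 0 reads. A heterozygote keeps 1 copy of the gene, so 0 reads beside 91 in PS19 do not match the label readily, although WT also had few. PS19 Zbp1+/- below stands for the library with that label. Xist had 11062 and 13350 reads in WT and PS19 and 0 in PS19 Zbp1+/-, which alone held reads of the Y-linked Ddx3y, and its choroid plexus markers summed to an FPKM of 11.2, against 3161 and 1944. Sex, the tissue taken and genotype therefore cannot be told apart in its comparisons.

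In the PS19 library most cholesterol synthesis enzymes were lower than in WT, while most export and turnover genes were higher. Among the enzymes, Msmo1, Fdft1, Cyp51 and Hmgcs1 were lowest relative to WT, at read ratios between 0.542 and 0.597, and of the 32 genes Abca1 and Apod were highest, at 2.99 and 2.26. The median difference of the 16 synthesis enzymes was -0.35 and that of the 9 export and turnover genes 0.44, against -0.03 over all genes tested. In all, 13 of the 16 enzymes were below WT and 8 of the 9 export and turnover genes were above it, whereas 54.7% of all genes tested were below WT. At 1.5-fold, 6 of the 32 genes were lower, all of them synthesis enzymes, against a background of 2.62% of genes. At the same threshold 5 were higher, against 5.43% of genes, namely 4 export and turnover genes and Srebf1. Together 11 of 32 were apart by that much, against 8.06%. The lower count ran from 4 to 7 over the alternative settings: Mvd and Sqle left it under rescaling to the same FPKM sum, Mvd under correction for GC content and length, and the carrier Stard4 joined it with a pseudocount of 0.1 and as a read ratio. At 2-fold, Abca1 and Apod were higher, that is 2 of 32 against 1.88% of genes, and 0 were lower against 0.277%.

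**Figure D1:**
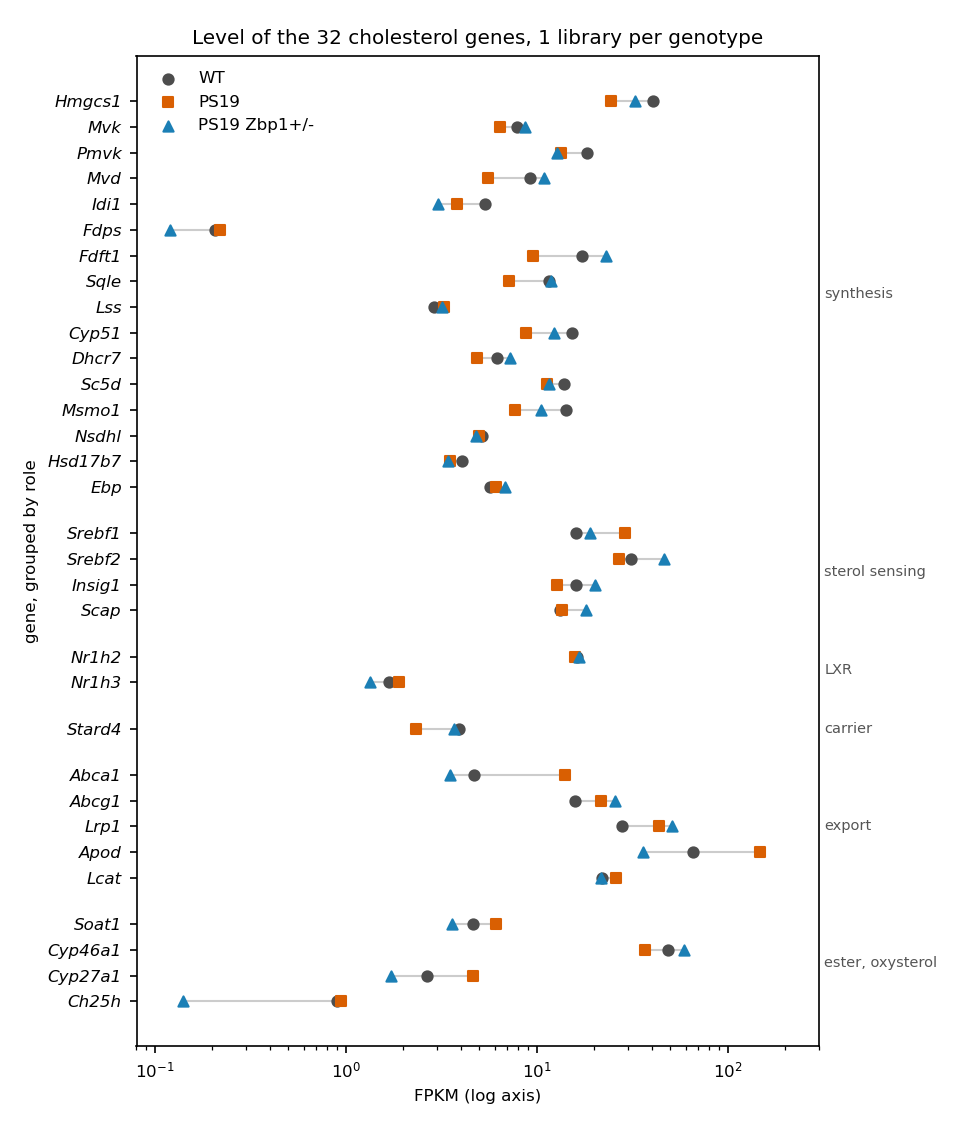
Level of each of the 32 genes in the 3 libraries, as FPKM on a log axis, with genes in rows grouped by role and 1 point per library. Among the synthesis enzymes the PS19 point (square) is the lowest of the 3 for 9 of 16, against 38.8% of all genes tested. Among the 9 export and turnover genes it is the highest for 6, against 29.3% of all genes tested. Of these 6, Ch25h had 21 reads in WT and 22 in PS19.

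Summed over the 16 synthesis enzymes, the level was an FPKM of 178, 121 and 163. PS19 was the lowest of the 3 libraries for 9 of the 16 enzymes, or 56.2%, and for 38.8% of all genes tested. Hmgcs1, which makes the HMG-CoA from which mevalonate is formed, was the most abundant of the enzymes, at FPKM values of 40.7, 24.3 and 32.7 (3228, 1932 and 2381 reads). Its read ratio of PS19 over WT was 0.597 (95% interval 0.564 to 0.632). Among the kinases of the mevalonate steps, Mvk had FPKM values of 7.91, 6.42 and 8.69 and Pmvk 18.2, 13.4 and 12.8. Both were lower in PS19 than in WT, but only Mvk was within counting error of WT in PS19 Zbp1+/-. Mvd, which decarboxylates the product of these kinases, had FPKM values of 9.17, 5.57 and 10.8, and its PS19 over WT ratio was 0.608 (0.502 to 0.734). Idi1, the isomerase of the isoprene unit, was highest in WT and lowest in PS19 Zbp1+/-, at 5.37, 3.81 and 3.03.

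Fdft1, the squalene synthase that commits farnesyl diphosphate to sterols, had FPKM values of 17.2, 9.52 and 22.9 (1251, 696 and 1535 reads). It was low in PS19 alone, and its PS19 over WT ratio was 0.555 (0.505 to 0.610). Sqle, the squalene epoxidase and a rate-limiting enzyme of the pathway, had FPKM values of 11.5, 7.12 and 11.9, so that WT and PS19 Zbp1+/- lay together and PS19 below them. Lss, which closes the sterol rings, did not share this pattern, at 2.89, 3.25 and 3.17.

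Of the enzymes that trim lanosterol, Cyp51 had FPKM values of 15.3, 8.80 and 12.4 (1167, 672 and 863 reads). Msmo1, which oxidises sterol methyl groups, had 14.2, 7.70 and 10.5 (1507, 818 and 1022 reads), the lowest PS19 over WT ratio of the 32 genes, 0.542 (0.497 to 0.590). Both were lowest in PS19 and intermediate in PS19 Zbp1+/-. The enzymes that work beside Msmo1 on the same methyl groups varied little, with Nsdhl at 5.14, 4.99 and 4.78 and Hsd17b7 at 4.04, 3.50 and 3.44. Their PS19 over WT intervals, 0.811 to 1.16 and 0.741 to 1.01, both included 1. The sterol isomerase Ebp was at 5.65, 6.13 and 6.81. The desaturase Sc5d was at 13.8, 11.3 and 11.5, and Dhcr7, the last enzyme of its branch, at 6.20, 4.83 and 7.22. Ebp and Nsdhl are X-linked. Thus 11 of the 16 enzymes had a PS19 over WT interval below 1, against 33.5% of all genes tested. Only Lss had one above 1, from 1.001 to 1.27, against 27.3% of all genes. Lss, Nsdhl and Nr1h2 were the 3 genes of the 32 whose sign between PS19 and WT changed under at least 1 other setting.

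Fdps, the farnesyl diphosphate synthase, had 15, 16 and 8 reads, the lowest level of the 32 genes in every library. It has 7 near-identical copies among GENCODE transcripts, at 90% identity or more over at least 300 bases. The processed pseudogene Gm3571, 98.9% identical over 1062 bases, had more reads than Fdps itself, at 69, 40 and 68. Gm43738, annotated on the same strand, overlaps Fdps over 7512 bases of the genome and had 0, 3 and 0 reads. The level of Fdps is therefore uncertain, and without it the median difference of the synthesis enzymes between PS19 and WT was -0.41. Idi1 also has a copy, Gm13502, identical over 684 bases, which had 3, 6 and 22 reads. Idi1 and its copies together had 328, 237 and 195 reads. Fdft1 shares 774 bases with Ctsb on the opposite strand. The labels do not state whether counting used strand, so reads of that stretch cannot be told apart, and Ctsb had 8870, 13660 and 8874 reads, highest in PS19, where Fdft1 was lowest. Akap9 overlaps Cyp51 on the opposite strand over 166 bases and had 958, 1290 and 787 reads.

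RefSeq promoter windows (GRCm38.p6, from 250 bases before to 50 after the start site) were matched for 27 of the 32 genes. Windows are printed for the 3 enzymes lowest in PS19 relative to WT among those matched and for Abca1 and Apod, the highest, because these 5 genes mark the ends of the pattern. Each is written 5′ to 3′ on the strand of its gene, and capitals mark the NF-Y box CCAAT on either strand (ATTGG when reversed) and the sterol regulatory element core TCACNCCAC. NF-Y is a factor that binds beside SREBP in many sterol-regulated promoters. The Hmgcs1 window is chr13:119690101-119690400 (plus strand), that of Cyp51 chr5:4104648-4104947 (minus), Msmo1 chr8:64733529-64733828 (minus), Abca1 chr4:53159846-53160145 (minus) and Apod chr16:31314759-31315058 (minus).
Hmgcs1: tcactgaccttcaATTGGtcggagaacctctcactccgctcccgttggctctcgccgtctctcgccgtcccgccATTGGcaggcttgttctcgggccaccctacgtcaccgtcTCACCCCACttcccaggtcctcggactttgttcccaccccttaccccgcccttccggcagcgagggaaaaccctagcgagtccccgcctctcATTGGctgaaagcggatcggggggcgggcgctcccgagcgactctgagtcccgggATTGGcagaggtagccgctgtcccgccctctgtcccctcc
Cyp51: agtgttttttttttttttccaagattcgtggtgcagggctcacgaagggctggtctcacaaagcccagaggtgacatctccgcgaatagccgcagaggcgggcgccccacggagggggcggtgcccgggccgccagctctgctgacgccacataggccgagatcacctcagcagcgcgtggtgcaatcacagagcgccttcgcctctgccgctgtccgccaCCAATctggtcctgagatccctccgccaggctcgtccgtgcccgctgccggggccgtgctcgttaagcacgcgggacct
Msmo1: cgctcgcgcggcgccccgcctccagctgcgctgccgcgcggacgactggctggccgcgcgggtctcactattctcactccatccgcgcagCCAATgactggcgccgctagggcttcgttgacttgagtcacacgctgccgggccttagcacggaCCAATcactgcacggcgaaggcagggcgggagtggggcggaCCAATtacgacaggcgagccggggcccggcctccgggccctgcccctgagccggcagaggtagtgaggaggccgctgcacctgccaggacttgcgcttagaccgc
Abca1: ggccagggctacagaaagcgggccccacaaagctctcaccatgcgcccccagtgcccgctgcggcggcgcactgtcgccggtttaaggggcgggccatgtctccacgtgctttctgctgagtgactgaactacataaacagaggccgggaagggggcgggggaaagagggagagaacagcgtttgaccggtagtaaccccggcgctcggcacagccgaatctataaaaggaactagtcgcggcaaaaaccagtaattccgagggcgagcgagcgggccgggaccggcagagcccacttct
Apod: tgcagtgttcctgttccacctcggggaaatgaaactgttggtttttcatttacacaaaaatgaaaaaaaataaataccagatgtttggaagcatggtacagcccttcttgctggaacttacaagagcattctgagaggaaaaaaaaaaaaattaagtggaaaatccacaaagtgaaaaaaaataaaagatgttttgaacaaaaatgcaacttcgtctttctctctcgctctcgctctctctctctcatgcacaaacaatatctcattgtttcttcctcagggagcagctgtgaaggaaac

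The Hmgcs1 window holds 4 NF-Y boxes and the only match to the sterol regulatory element core among the 27 genes, at position -137 from the start site. Msmo1 holds 3 NF-Y boxes and Cyp51 1, while the windows of Abca1 and Apod hold 0. A CCAAT on either strand was found in all 13 of the matched synthesis enzymes and in 4 of the 8 matched export and turnover genes, against 41.1% of all 27025 RefSeq genes with a window. The Sp1 box GGGCGG, searched on both strands, was found in 12 of the 13 enzymes and 5 of the 8, against 38.2% of all genes. The core TCACNCCAC occurred in 1.44% of all genes. Variant forms of the sterol regulatory element were not searched, so a window without a match may still hold one. An exact LXR direct repeat with a spacer of 4 bases, on either strand, occurred in 4 of all genes and in 0 of the 27. A pattern this rare cannot show whether the 27 genes hold LXR sites, and looser forms of the repeat were not searched. Of the 94 matches in the 27 genes, 0 overlapped a match to another of these motifs. A gene counted if any of its windows held a match, and a match is a description of the sequence only.

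Among the sterol-sensing genes, Srebf1 was well above WT in PS19 and Srebf2 slightly below it. Srebf1, which encodes the SREBP isoforms best known for fatty acid synthesis and is itself an LXR target, had FPKM values of 15.98, 29.1 and 19.1 (1553, 2830 and 1699 reads). It was high in PS19 alone, with a PS19 over WT ratio of 1.82 (1.71 to 1.94). Srebf2, which encodes the SREBP of cholesterol synthesis, had 31.3, 26.9 and 46.2, lowest in PS19 and highest in PS19 Zbp1+/-. Its PS19 over WT ratio was 0.861 (0.822 to 0.902). The difference of -0.208 was within the usual range, as the 25th percentile of all genes tested was -0.217. It came to -0.084 under rescaling to the same FPKM sum. On this per-length scale the level of Srebf2 was 1.96 times that of Srebf1 in WT, 0.926 times in PS19 and 2.43 times in PS19 Zbp1+/-. Insig1, which retains Scap and is a well-known SREBP target, had FPKM values of 16.04, 12.7 and 20.1, and its PS19 over WT ratio was 0.792 (0.715 to 0.877). Scap, the escort protein, was at 13.2, 13.5 and 18.1, level between WT and PS19. Srebf1 shares 109 bases with Rai1 on the opposite strand, which had 1643, 1865 and 2558 reads.

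Stard4, a soluble carrier that moves cholesterol between membranes and is regulated by SREBP, followed the synthesis enzymes. It had FPKM values of 3.91, 2.32 and 3.70 (377, 224 and 327 reads). The PS19 over WT ratio was 0.593 (0.5003 to 0.701). The LXR genes differed little between WT and PS19. Nr1h2, encoding LXR beta, was at 16.3, 15.7 and 16.6, with a PS19 over WT interval of 0.883 to 1.06. Nr1h3, encoding LXR alpha, was weaker, at 1.68, 1.89 and 1.33 from 73, 82 and 53 reads, with an interval of 0.808 to 1.56.

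The export genes held the largest differences of the 32. Abca1, the transporter that loads cholesterol onto apolipoprotein E (chromosome 4, 53030787 to 53159895, GRCm38), had FPKM values of 4.71, 14.1 and 3.51 (842, 2523 and 576 reads). PS19 stood far above both other libraries, with a PS19 over WT ratio of 2.99 (2.76 to 3.24) and a difference of 1.40. Abcg1, the transporter that passes cholesterol on to lipoprotein particles, did not follow it. It was at 15.8, 21.7 and 25.6, lowest in WT and highest in PS19 Zbp1+/-, so that the level of Abca1 was 0.299, 0.650 and 0.137 times that of Abcg1. Lrp1, a large receptor that takes up lipoproteins carrying apolipoprotein E, had the same order as Abcg1, at 27.8, 43.5 and 50.7.

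Apod encodes a lipocalin that carries small lipids and is secreted by glia, and lies on chromosome 16 (31296192 to 31314808, GRCm38). Its FPKM values were 65.5, 148 and 35.8 (2912, 6591 and 1459 reads), which made it the most abundant of the 32 genes in WT and in PS19 and the fourth in PS19 Zbp1+/-. The PS19 over WT ratio was 2.26 (2.16 to 2.36). Lcat, which esterifies cholesterol on secreted lipoproteins, was at 21.9, 25.9 and 21.7, with a PS19 over WT ratio of 1.18 (1.05 to 1.33). Without Abca1 and Apod, the other 7 export and turnover genes still had a median difference of 0.34 between PS19 and WT. Of these 7, 6 were higher in PS19, against 45.2% of all genes tested. An interval above 1 was found for 5 of the 7, against 27.3% of all genes. Their summed FPKM was 1.14 times that of WT.

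The turnover genes split by enzyme. Soat1, which esterifies cholesterol for storage in droplets, had FPKM values of 4.62, 6.11 and 3.58. Cyp27a1, a mitochondrial sterol hydroxylase, had 2.67, 4.63 and 1.72 (100, 174 and 59 reads), with a PS19 over WT ratio of 1.74 (1.35 to 2.24). Both were highest in PS19 and lowest in PS19 Zbp1+/-. Cyp46a1, the neuronal cholesterol hydroxylase, ran the other way, at 48.6, 36.8 and 59.0 (2759, 2093 and 3067 reads). It was the 1 export and turnover gene below WT in PS19, with a ratio of 0.757 (0.715 to 0.802). Ch25h, which makes an oxysterol known from interferon-treated macrophages, had only 21, 22 and 3 reads. Its WT and PS19 levels were indistinguishable at this depth, with a ratio of 1.05 (0.548 to 1.999).

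**Figure D2:**
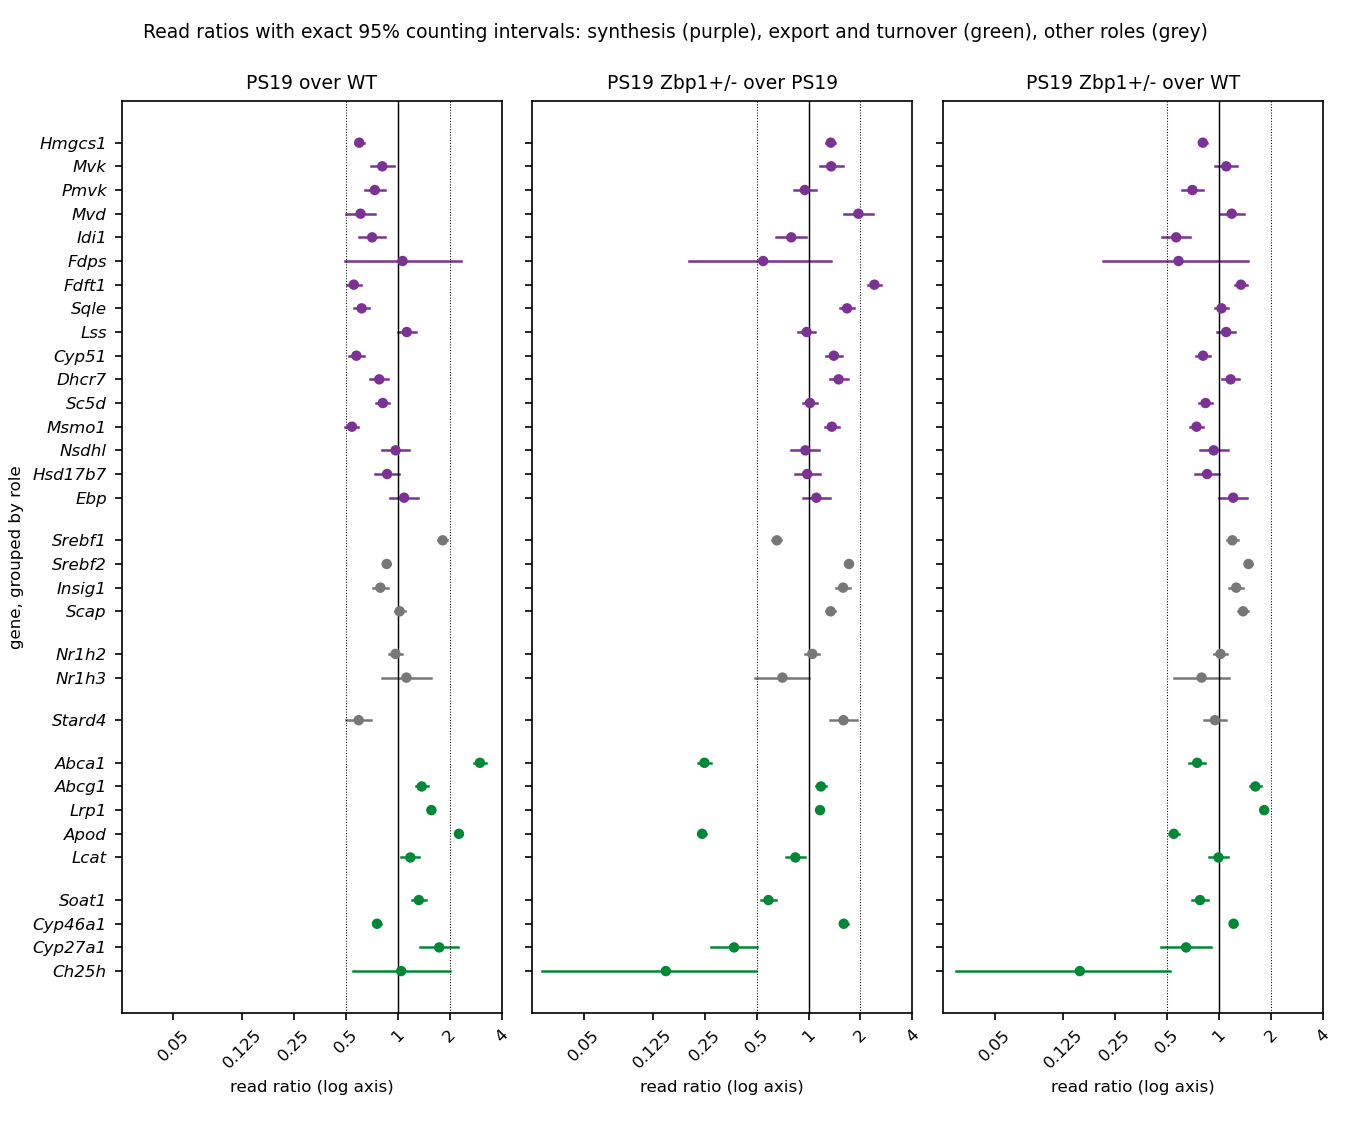
Read ratios of the 32 genes in the 3 comparisons on a log axis, with exact 95% counting intervals as bars, the solid line at 1 and dotted lines at 0.5 and 2. In the left panel 11 of 16 synthesis enzymes (purple) have intervals below 1, against 33.5% of all genes tested. There 7 of 9 export and turnover genes (green) have intervals above 1, against 27.3%.

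Between PS19 Zbp1+/- and PS19 the medians of the groups had the opposite signs, with a less even pattern within each. The synthesis enzymes had a median difference of 0.26 and the export and turnover genes of -0.63, against 0.05 over all genes tested. Of the 16 enzymes 10 were higher than in PS19, or 62.5%, close to the 54.7% of all genes tested. Of the 9 export and turnover genes 6 were lower, against 45.3% of all genes tested. Without Abca1 and Apod the median of the other 7 was -0.24, with 3 of the 7 higher, and their summed FPKM was 1.16 times that of PS19, opposite in direction to the median. At 2-fold, Fdft1 was higher, that is 1 of 32 genes against a background of 1.98%, and 3 genes, Abca1, Apod and Cyp27a1, were lower, against 4.75%. These are 4 of 32 in either direction, against 6.73%. At 1.5-fold, 6 genes were higher against 9.39% of genes, and 5 were lower against 10.8%. Only Mvd and Fdft1, 2 genes, were higher by that much under rescaling to the same FPKM sum and under scaling by total reads. Under these settings 3.61% and 4.92% of all genes were higher by that much. PS19 is the reference here and the test library in the comparison with WT, so a value that happened to be low or high in PS19 sets the sign in both. The 2 sets of differences are therefore given side by side and not correlated.

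Fdft1 had a PS19 Zbp1+/- over PS19 ratio of 2.41 (2.20 to 2.64), the highest of the 32, beside 0.555 for PS19 over WT. Its difference was 1.19, and 0.92, below 2-fold, when the libraries were rescaled to the same FPKM sum. Mvd followed at 1.95 (1.62 to 2.35) and Sqle at 1.67 (1.52 to 1.84). Hmgcs1, Mvk, Cyp51, Dhcr7 and Msmo1 had ratios between 1.35 and 1.49, all with intervals above 1, so that 8 of the 16 enzymes had such intervals, against 39.8% of all genes. Idi1 was the 1 enzyme with an interval below 1, at 0.794 (0.647 to 0.973), against 31.4% of all genes. The remaining 7 enzymes, Pmvk, Fdps, Lss, Sc5d, Nsdhl, Hsd17b7 and Ebp, had intervals that included 1. Rescaling to the same FPKM sum brought the median of the 16 enzymes to 0.0081 and the median of all genes to -0.19.

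Of the sensing genes, Srebf2, Insig1 and Scap were higher in PS19 Zbp1+/- than in PS19, at ratios of 1.72, 1.59 and 1.34, and Srebf1 was lower, at 0.656 (0.617 to 0.697). Stard4 was at 1.595 (1.34 to 1.90). Nr1h2 and Nr1h3 had ratios of 1.05 and 0.706, with intervals of 0.958 to 1.16 and 0.490 to 1.01. Abca1 was at 0.249 (0.227 to 0.273) and Apod at 0.242 (0.228 to 0.256), with differences of -1.74 and -2.02. Cyp27a1 was at 0.370 (0.271 to 0.5003) and Soat1 at 0.586 (0.527 to 0.650). Cyp46a1 was higher, at 1.601 (1.51 to 1.69), and Abcg1 and Lrp1 were slightly higher, at 1.18 and 1.17. The last 2 signs turned under rescaling to the same FPKM sum, to -0.04 and -0.06.

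Ch25h had a ratio of 0.149 (0.0285 to 0.496) in this comparison, from 22 and 3 reads. The PS19 Zbp1+/- library was short of weakly detected genes in general. Of 738 genes with 15 to 30 reads in both other libraries, 74 had at most 3 reads there, or 10.0% (exact 95% interval 7.96% to 12.4%). The matching shares were 1.55% for WT, of 517 genes, and 0.867% for PS19, of 577 genes. The part of this in the Ch25h value was not tested.

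**Figure D3:**
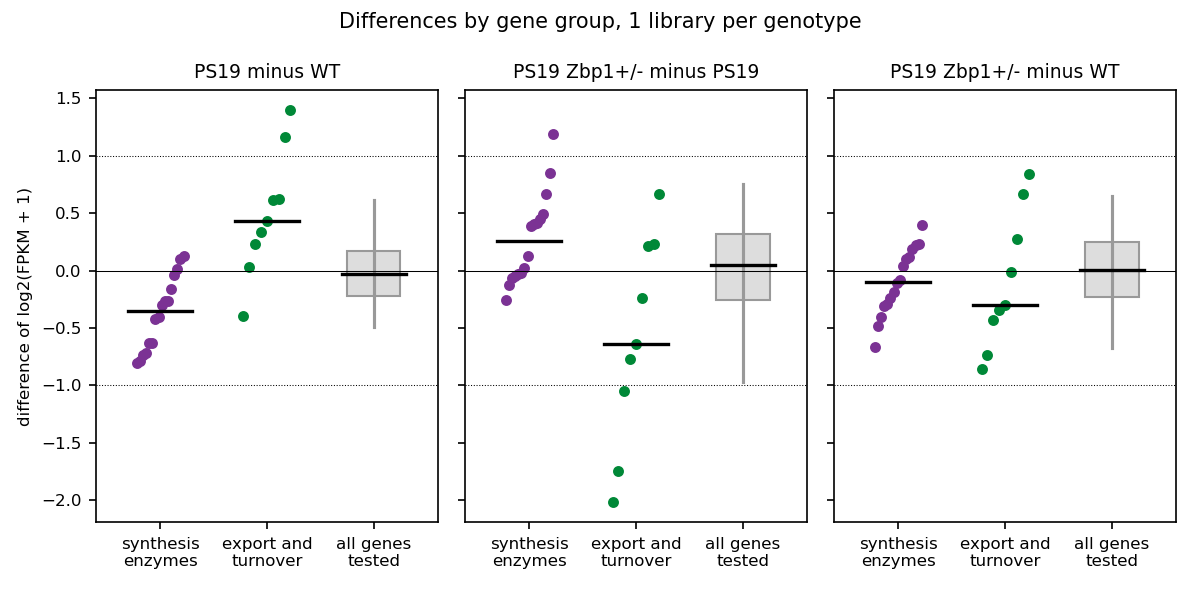
Differences of log2(FPKM + 1) for the 16 synthesis enzymes and the 9 export and turnover genes, 1 point per gene with the median as a bar, beside all 12274 genes tested (box from the 25th to the 75th percentile, line from the 5th to the 95th, bar at the median). The medians of the 2 groups are -0.35 and 0.44 for PS19 minus WT, 0.26 and -0.63 for PS19 Zbp1+/- minus PS19, and -0.10 and -0.30 for PS19 Zbp1+/- minus WT, with dotted lines at the 2-fold threshold.

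Set against WT directly, the PS19 Zbp1+/- library had 0 of the 32 genes 2-fold apart in either direction, against 3.11% of all genes, with 2.11% lower. Under 4 of the 5 alternatives 1 gene was 2-fold lower. Apod was closest to that threshold, at a difference of -0.85 and a read ratio of 0.546 (0.513 to 0.582), and passed it at -1.01 under both rescalings. Ch25h, with 21 and 3 reads, had a read ratio of 0.156 (0.0297 to 0.522) and passed it with a pseudocount of 0.1 and as a read ratio. The synthesis enzymes had a median difference of -0.10 and the export and turnover genes of -0.30, against 0.01 over all genes. Among the enzymes, Idi1 at 0.564, Pmvk at 0.6998 and Msmo1 at 0.739 were below WT in read ratio, Sqle was at 1.03 (0.947 to 1.12), and Fdft1 was above WT at 1.34 (1.24 to 1.44). Intervals lay below 1 for 7 of the 16 enzymes, against 31.3% of all genes, and above 1 for 4, against 34.9%. All 4 sensing genes were above WT, against 50.7% of all genes, led by Srebf2 at 1.48 (1.42 to 1.54). Srebf1, at 1.19, turned to a difference of -0.12 after correction for GC content and length. Abca1 was below WT at 0.746 (0.670 to 0.830). Lrp1 and Abcg1, in contrast, were the genes furthest above WT, at 1.82 (1.78 to 1.87) and 1.62 (1.502 to 1.752), the 2 of 32 that were 1.5-fold higher, against 6.44% of genes. Neither call held under every alternative. Abcg1, at a difference of 0.66, came to 0.51, 0.52 and 0.54 under rescaling to the same FPKM sum, scaling by total reads and correction for GC content and length. Lrp1, at 0.84, came to 0.37 under the last of these, which left 0 genes 1.5-fold higher, against 4.03% of all genes. At 1.5-fold, Idi1, Apod and Ch25h were lower, that is 3 of 32 against 6.76%. Over the alternatives the count ran from 1, Apod, to 5, against 5.87% to 10.8% of all genes.

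A list of 50 other genes of the pathway was read in the same way. Between PS19 and WT, 0 of the 50 were 2-fold apart, and at 1.5-fold 4 were higher and 0 lower, against 5.43% and 2.62% of all genes, so that the share higher was near the background. The 4 were Npc1, which releases cholesterol from lysosomes (difference 0.61), Apoe, the main lipoprotein component of brain (0.69), Clu, another secreted apolipoprotein (0.67), and Abca2, a transporter abundant in oligodendrocytes (0.74). Apoe had FPKM values of 903, 1459 and 859, the pattern of Abca1 at a far higher level. The 8 other synthesis genes had a median difference of -0.16 between PS19 and WT, with 4 below WT, 3 above it and 1, Idi2, at 0 reads in each library.

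Between PS19 Zbp1+/- and PS19, 2 of the 50 genes were 2-fold lower and 0 higher, against 4.75% and 1.98% of all genes, no more than the background. The 2 were Tspo, an outer mitochondrial membrane protein prominent in glia, at a difference of -1.38, and Npc2, the soluble partner of Npc1, at -1.06. Tspo had FPKM values of 8.77, 12.8 and 4.33 in WT, PS19 and PS19 Zbp1+/-, and Npc2 had 13.2, 20.2 and 9.13. At 1.5-fold, 3 of the 50 were higher and 6 lower, near the 9.39% and 10.8% of all genes. Fasn, the fatty acid synthase and an SREBP target, had a different order of libraries from the cholesterol enzymes, at 25.5, 33.5 and 50.3, and was 0.96 above WT in PS19 Zbp1+/-.

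Markers of brain cell types differed between the libraries as well. All 10 neuron markers had reads in each library, and their summed FPKM was 1159, 977 and 1425. Of the 10, 8 were below WT in PS19 and 2 above it, with a median difference of -0.24. In PS19 Zbp1+/-, 8 were above PS19 and 2 below it. Astrocyte markers summed to 604, 1471 and 723, with 10 of 10 above WT in PS19 but a median difference of 0.46, 3 of 10 at 1.5-fold and the highest at 2.95. Microglia markers summed to 139, 462 and 144, with 9 of 10 above WT in PS19 and a median difference of 1.49. Oligodendrocyte markers summed to 868, 1550 and 565, with 10 of 10 above WT in PS19 and 10 of 10 below PS19 by 2-fold or more in PS19 Zbp1+/-. By summed FPKM the glial lists were thus highest in PS19, as Abca1, Apod, Soat1 and Cyp27a1 were. By the same measure the neuron list was lowest in PS19, as were Cyp46a1 and most synthesis enzymes. The oligodendrocyte list was also lower in PS19 Zbp1+/- than in WT, as were Abca1, Apod, Soat1 and Cyp27a1. Abcg1 and Lrp1 did not follow the glial lists, with FPKM values lowest in WT and highest in PS19 Zbp1+/-. Choroid plexus markers summed to 3161, 1944 and 11.2, with all 12 below PS19 by 2-fold or more in PS19 Zbp1+/- and Slc4a5 at 0 reads there, and blood markers to 19.0, 15.8 and 3.44. Endothelial markers summed to 99.5, 115 and 93.0, mural and fibroblast markers to 52.3, 51.3 and 59.4, and oligodendrocyte precursor markers to 51.2, 82.2 and 39.6. The part of cell makeup in the differences of the cholesterol genes was not tested.

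**Figure D4:**
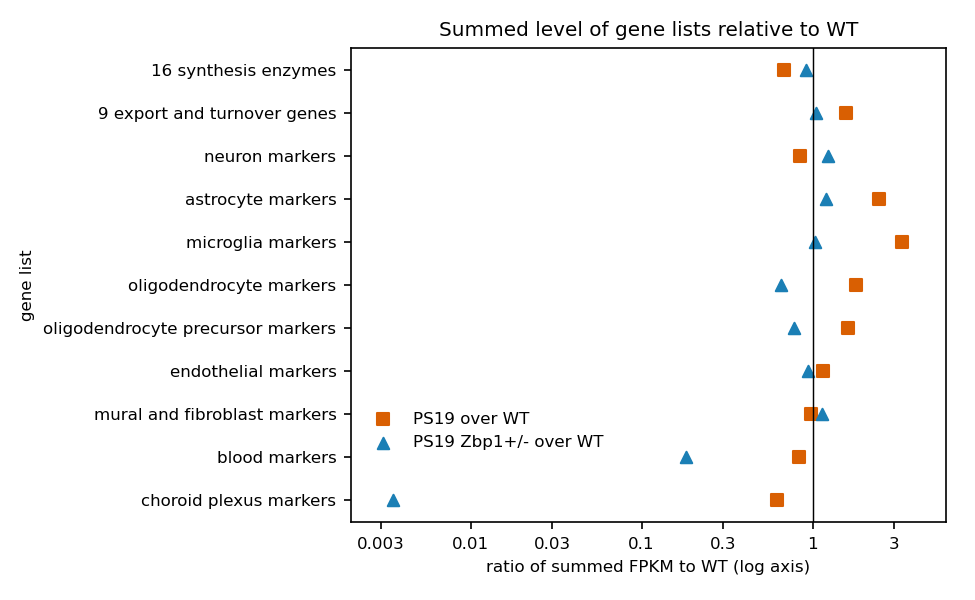
Summed FPKM of the synthesis enzymes, the export and turnover genes and 9 lists of cell type markers, as a ratio to WT on a log axis, for PS19 (squares) and PS19 Zbp1+/- (triangles). In PS19 the synthesis enzymes are at 0.681 and the neuron markers at 0.843 of WT, while the export and turnover genes (1.57) and the oligodendrocyte (1.79), astrocyte (2.43) and microglia (3.31) markers are above it, but the export and turnover ratio is 1.14 without Abca1 and Apod and the astrocyte median difference is 0.46.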

How the data were processed

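The authors deposited 1 table of FPKM values per gene and library, and the unit follows from its name and values. Per the submitters' processing notes, Trim Galore 0.6.5, STAR 2.5.3a and featureCounts 2.0.4 were used, and the build named is mm39. Gene positions in the table nevertheless equal GENCODE M21 (GRCm38) for 98.3% of 54495 gene IDs, including 30 of the 32 genes, so positions are given as GRCm38. Per the labels' protocols, RNA was extracted with TRIzol and libraries made with an NEB Next Ultra kit. Strandedness in counting, pooling and sequencing batch are not given in the sources used here.

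FPKM times gene length was a whole multiple of 1 step for 100% of values (tolerance 0.01 reads), which gave whole reads. The implied library sizes equal median-of-ratios size factors (1.03, 1.03 and 0.945) times the geometric mean total, so the deposited values include that scaling. No p-value was computed. Genes and lists were chosen with earlier results of these data known. Full values were planned for genes 2-fold apart in any comparison and the 3 largest differences of each role, and the rest, with 5 of the other pathway genes (Apoe, Npc1, Clu, Abca2 and Fasn), were added after their values were seen. Alternatives were a pseudocount of 0.1, rescaling to the mean FPKM sum, scaling by total reads, ratios of reads with a minimum of 3, other gene filters, and, chosen after seeing the data, subtraction of the median within 10 bins of GC content and 5 of length. Copies were sought with BLAST 2.17.0. The procedure was tested on simulated data. The software was scipy 1.17.1, pandas 2.3.3 and numpy 2.4.6 under Python 3.11.15, with matplotlib 3.10.9 for plots.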

Additional observations from a re-analysis of the deposited data

How the results depend on the processing

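No paired analysis was possible because each genotype had 1 library, and no library could be left out. Over 5 alternatives, the 6 group medians kept their sign. Of 60 values of medians and 2-fold counts, 50 stayed close to those reported. Close meant that a median moved by less than the typical counting half-width of 1 gene, or a count by at most 1.5-fold. That rule is loose, and some counts were 0 under every setting. The synthesis median of PS19 Zbp1+/- minus PS19, reported as 0.26, counted as close at 0.093 scaled by total reads. It also did at 0.13 after correction for GC content and length. For PS19 Zbp1+/- minus PS19, rescaling to the same FPKM sum gave a synthesis median of 0.0081, an export and turnover median of -0.86 and 0 genes 2-fold higher. The export and turnover median was -0.79 scaled by total reads and -0.77 as read ratios with reads of at least 3. For PS19 minus WT, the export and turnover median was 0.56 after rescaling to the same FPKM sum. For PS19 Zbp1+/- minus WT, 1 gene was 2-fold lower with a pseudocount of 0.1, rescaling to the same FPKM sum, scaling by total reads, or read ratios, in place of 0. That gene was Apod under both scalings (-1.01 each) and Ch25h under the pseudocount (-2.06) and the read ratio (-2.68). The rescalings moved the median of all genes to -0.19 and -0.11 for PS19 Zbp1+/- minus PS19, and to -0.13 and -0.12 against WT. Of the 32 genes, 29, 26 and 23 kept their sign under all 5 alternatives in PS19 minus WT, PS19 Zbp1+/- minus PS19 and PS19 Zbp1+/- minus WT. The 1.5-fold counts moved more, from 4 to 7 genes lower for PS19 minus WT, 2 to 7 higher for PS19 Zbp1+/- minus PS19, and 0 to 2 higher for PS19 Zbp1+/- minus WT. Depth limits Ch25h, Fdps and Nr1h3 most.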
